A study of Rattus norvegicus with 14 samples.

Results

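The genes described here are those that make, receive, block and transmit the Wnt signal: Wnt ligands, the ligand-modifying enzyme Porcn, Frizzled and Lrp receptors, R-spondins, secreted antagonists, β-catenin with its destruction complex, and TCF/LEF factors. Members were taken by symbol from the rows of the gene count table (every Wnt, Fzd, Sfrp, Dkk and Rspo row with a number in its name, plus Lrp5, Lrp6, Axin1, Axin2, Ctnnb1, Lef1, Tcf7l1, Tcf7l2, Apc, Wif1 and Porcn), which gave 47 of 16816 genes. The list also named Tcf7, which has no row in the table. The samples were PCCL3 cells, a rat thyroid follicular cell line, stably transfected either with the PAX8-PPARG fusion protein (PPFP), which carried a Myc tag, or with empty vector (EV). PPFP is the product of a chromosomal translocation of thyroid carcinomas and joins the thyroid transcription factor PAX8 to the nuclear receptor PPARG. Cells of each line received pioglitazone, which activates PPARG, at 1 μM, or only its DMSO vehicle, for the last 16 h of culture. The resulting 4 groups held 3 RNA-seq libraries each, from 3 independent experiments. The cells of every group grew in Coon's medium with serum, thyrotropin, insulin, transferrin and hydrocortisone. Whether a line was 1 clone or a pool of transfectants is not given in the sources used here, so the fusion protein and any other difference between the lines cannot be told apart.

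Wnt proteins are secreted, lipid-modified signals. PORCN attaches the lipid in the endoplasmic reticulum, and the secreted ligand binds a Frizzled receptor together with LRP5 or LRP6. Without ligand, a complex of AXIN, APC and kinases marks β-catenin for destruction; receptor binding disables that complex, and β-catenin then enters the nucleus and drives transcription with TCF/LEF factors. AXIN2 is itself a target of this transcription and acts as negative feedback. Several ligands, among them WNT5A, WNT5B and WNT11, are better known for signaling through planar polarity and calcium routes that do not need β-catenin. WIF1 and SFRP proteins bind ligands, DKK proteins bind LRP5 and LRP6, and R-spondins keep receptors on the cell surface. In thyroid tumors, activating mutations of the β-catenin gene are known from poorly differentiated and anaplastic carcinomas.

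The libraries held 23724703 to 35240176 counted reads. Levels are given as CPM, which are counts scaled to a common library size after trimmed-mean normalization over the 12 libraries, and they are not corrected for transcript length, so they compare samples and not genes. Pparg, whose row can take up reads of the fusion transcript, was at 1.23 to 2.81 CPM in the EV libraries and 46.7 to 61.2 CPM in the PPFP libraries, as the labels say. All 10 thyroid follicular markers were detected, at a summed 10190 to 14622 CPM. Of 7 fibroblast markers 5 were detected, at a summed 20.4 to 32.1 CPM without and 23.0 to 34.5 CPM with pioglitazone, with Col3a1 and Dcn at 0 in every library. All 4 leukocyte markers were detected at low levels, with sums of 0.54 to 1.04 CPM in EV libraries and 0.88 to 1.45 CPM in PPFP libraries. C cell markers summed to at most 0.038 CPM, with Calca and Calcb at 0, and endothelial markers to at most 0.20 CPM, with Cdh5 at 0. The part of these cell types in the values of the Wnt genes was not tested. The PPFP replicates 2 and 3 with pioglitazone were closer to each other than any other pair (chi-square per degree of freedom 1.70, against 17.8 to 113 for the other pairs within groups). They still differed by more than counting noise and were kept as separate samples, but whether they share a culture cannot be told from these files; leaving out either changed the number of called members by at most 1 in the comparison that gave the most calls.

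A gene was called where edgeR's quasi-likelihood test gave an adjusted p below 0.05 and the fold change exceeded 2. Of the 47 members, 24 had enough reads to be tested in at least 1 comparison, which means that a gene could pass through the group where it is high. The other 23 stayed at 11 counts or fewer in every library, and 7 of them had no count at all, which allows at most 0.127 CPM in the shallowest library (3 counts). Those 23 were 12 of the 18 Wnt genes (Wnt1, Wnt2b, Wnt3, Wnt3a, Wnt6, Wnt7b, Wnt8a, Wnt8b, Wnt9b, Wnt10a, Wnt10b and Wnt16), Fzd9, the pseudogene row Fzd10-ps1, all 3 R-spondins, Dkk1, Dkk2, all 3 Sfrp genes and Lef1.

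In PPFP cells, most of the detectable Wnt ligands, several Frizzled receptors and the antagonist Wif1 were lower than in EV cells, while Wnt7a, Lrp6, Fzd4 and Axin2 were higher. Without pioglitazone, 7 of 23 tested members were called, against 14.6% of all tested genes. Wnt7a and Axin2 were the 2 called higher (7.27% of all genes), and Wnt4, Wnt5b, Porcn, Fzd1 and Wif1 the 5 called lower (7.31% of all genes). At any fold, 18 members passed the adjusted p (45.2% of all genes), 5 of them higher (22.0% of all genes) and 13 lower (23.1% of all genes). The median log2 fold change of the 23 members was −0.44, with 0.0016 over all tested genes.

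With pioglitazone, 12 of 24 tested members were called, against 19.7% of all genes. The 4 called higher (9.30% of all genes) were Wnt7a, Axin2, Lrp6 and Fzd4. The 8 called lower (10.4% of all genes) were Wnt4, Wnt5b, Wnt11, Porcn, Fzd1, Fzd2, Fzd8 and Wif1. At any fold, 19 members passed (52.7% of all genes), 5 higher (26.3% of all genes) and 14 lower (26.4% of all genes), and the median was −0.40. All 7 members called without the drug were also called with it, and 22 of the 23 members tested in both comparisons had the same sign. The EV and PPFP libraries did not overlap for 21 members without pioglitazone (56.0% of all genes) and for 22 with it (62.9% of all genes).

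**Figure D1:**
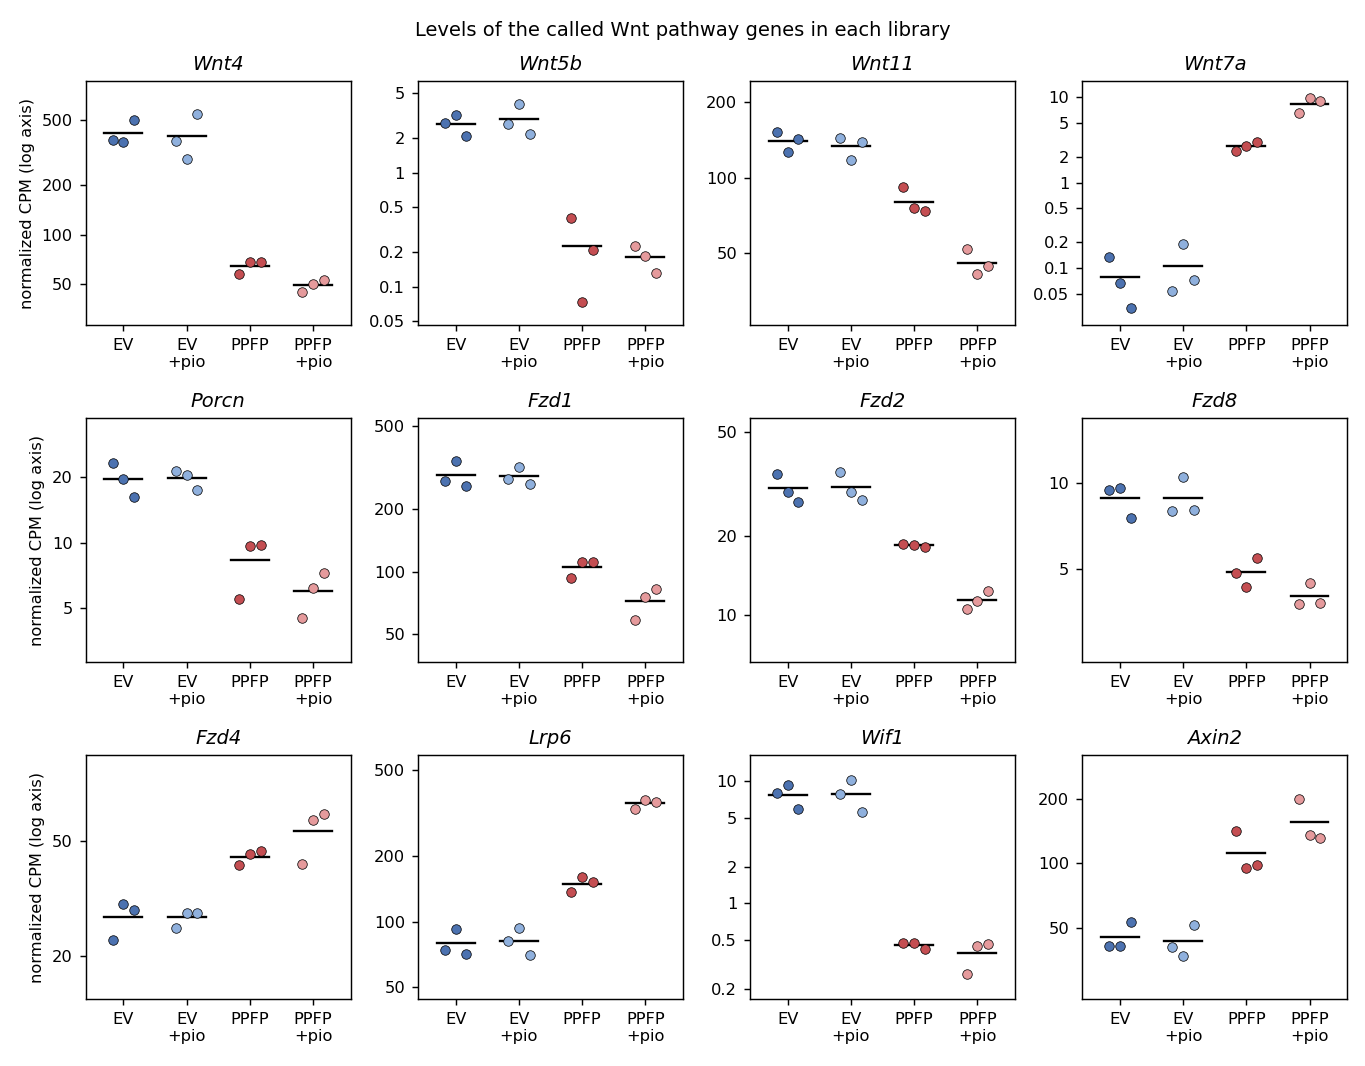
Level of each of the 12 called members in every library, as normalized CPM on a log axis that differs between panels. Each point is 1 library, groups hold 3 libraries and the line is the group mean; the EV groups with and without pioglitazone sit at like levels in every panel, and the PPFP groups lie apart from them.

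Promoter sequences are shown for Wnt4 and Wif1, which were far lower in PPFP cells, for Wnt7a, which was far higher, and for Axin2, whose promoter window held motif matches. Of the 47 members, 33 were matched in the RefSeq promoter table (build GRCr8), including 9 of the 12 called members (not Wnt5b, Fzd2 and Lrp6). The 250 bases before the annotated start were searched on both strands for the TCF/LEF letters CTTTGAT and CTTTGAA, for the paired-domain core letters GTCACGC, and for the PPAR direct repeat DR1 motif, allowing no mismatch. Matches are in capitals. The sequences lie at chr5:154797200-154797449 (Wnt4, plus strand), chr4:125466150-125466399 (Wnt7a, minus strand), chr7:58433329-58433578 (Wif1, plus strand) and chr10:94398535-94398784 (Axin2, plus strand).

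Wnt4: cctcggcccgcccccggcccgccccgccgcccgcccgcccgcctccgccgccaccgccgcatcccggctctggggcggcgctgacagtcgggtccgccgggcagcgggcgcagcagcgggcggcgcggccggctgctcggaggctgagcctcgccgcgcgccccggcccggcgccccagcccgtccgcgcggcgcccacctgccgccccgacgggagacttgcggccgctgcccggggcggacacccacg

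Wnt7a: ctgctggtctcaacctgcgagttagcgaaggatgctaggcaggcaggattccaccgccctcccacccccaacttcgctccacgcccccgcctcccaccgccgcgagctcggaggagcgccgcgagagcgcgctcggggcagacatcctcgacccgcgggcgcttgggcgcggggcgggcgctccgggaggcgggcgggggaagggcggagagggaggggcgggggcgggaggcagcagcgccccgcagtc

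Wif1: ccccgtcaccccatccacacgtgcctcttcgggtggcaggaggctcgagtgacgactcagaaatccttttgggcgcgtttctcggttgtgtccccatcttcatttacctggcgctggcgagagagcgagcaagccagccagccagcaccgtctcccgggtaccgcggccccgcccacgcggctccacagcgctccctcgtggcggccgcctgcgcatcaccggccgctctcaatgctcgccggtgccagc

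Axin2: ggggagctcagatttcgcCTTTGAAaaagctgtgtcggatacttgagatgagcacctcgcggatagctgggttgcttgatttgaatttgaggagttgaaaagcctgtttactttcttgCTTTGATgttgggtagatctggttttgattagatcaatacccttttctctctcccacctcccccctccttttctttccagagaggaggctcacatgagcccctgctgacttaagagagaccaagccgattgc

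The Axin2 window held CTTTGAT starting 132 bases before the start and CTTTGAA 232 bases before it. CTTTGAT was present in 3.149% and CTTTGAA in 4.676% of the 33469 windows of the same length, and 7.58% held either. The windows of Wnt4, Wnt7a and Wif1 held none of the motifs searched. Among the other members, Dkk1 and Wnt8a, which were not tested for lack of reads, held CTTTGAA, and Wnt9a held the paired-domain core on the minus strand 67 bases before its start, as did 1.739% of all windows. The DR1 letters were in 0.05079% of all windows and in none of the members' windows. A match is a description of the letters only, and no match says nothing about the factor.

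Among the ligands, 6 of 18 genes could be tested. In both comparisons between the lines, 1 ligand rose and 5 fell at any fold, where 22.0% of all genes rose and 23.1% fell without the drug and 26.3% and 26.4% with it. The reads of all 18 ligands summed to 669 to 788 CPM in EV cells and 251 to 260 CPM in PPFP cells without pioglitazone, and to 582 to 824 and 203 to 211 CPM with it. Wnt4 supplied 54.8 to 63.9% of the ligand reads of EV cells and 22.3 to 26.9% of those of PPFP cells without the drug.

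Wnt4, a ligand known for its roles in kidney and female reproductive tract development, took the most ligand reads in EV cells, while in PPFP cells Wnt5a and, without the drug, Wnt11 took more. Without pioglitazone it was at 377, 366 and 503 CPM in the EV libraries and 57.9, 68.4 and 67.6 CPM in the PPFP libraries. With pioglitazone it was at 373, 290 and 543 CPM in EV cells and 44.8, 49.9 and 53.0 CPM in PPFP cells. Every PPFP library lay far below every EV library. The fall was 6.32-fold without the drug (log2 −2.66, SE 0.14, adjusted p = 1.13e-05) and 7.99-fold with it (log2 −3.00, SE 0.23, adjusted p = 5.87e-05).

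Wnt5b, a ligand of the β-catenin-independent branch, was a low gene that was nearly lost from PPFP cells. It was at 2.71, 3.21 and 2.09 CPM in EV cells and 0.404, 0.0739 and 0.211 CPM in PPFP cells without pioglitazone. With the drug the values were 2.65, 3.96 and 2.19 CPM and 0.227, 0.187 and 0.132 CPM. The groups did not overlap, but the PPFP values rest on 18 and 15 reads in all. The ratio of summed counts per summed library size was 11.6 without pioglitazone (95% exact interval 7.18 to 19.9) and 16.4 with it (9.76 to 29.6), where intervals cover counting error only. The fitted log2 differences were −3.49 (SE 0.44, adjusted p = 0.000625) and −3.97 (SE 0.36, adjusted p = 0.000126). Leaving out 1 library put the former at −4.18 (without PPFP replicate 1) to −3.05 (without PPFP replicate 2).

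Wnt11, a planar polarity ligand of heart and kidney development, was at 151, 126 and 142 CPM in EV cells and 91.6, 75.7 and 73.4 CPM in PPFP cells without pioglitazone. With the drug it was at 144, 118 and 138 CPM in EV cells and 52.0, 41.5 and 44.5 CPM in PPFP cells. The 4 groups therefore stood at 3 levels, with the EV groups overlapping at the top and the drug-treated PPFP libraries below all others. The log2 difference between the lines was −0.78 without the drug (SE 0.11, adjusted p = 0.00105) and −1.51 with it (SE 0.12, adjusted p = 5.58e-05). Wnt5a, another ligand of the β-catenin-independent branch, fell by a smaller amount, from a mean of 132 ± 16.4 to 89.8 ± 2.06 CPM without the drug (SD, n = 3; log2 −0.54, edgeR adjusted p = 0.00507) and by 0.55 on the log2 scale with it (adjusted p = 0.00231). Wnt9a, a ligand of skeletal and blood development, fell by 0.39 on the log2 scale without the drug (adjusted p = 0.0186) and by 0.62 with it (adjusted p = 0.00753), from an EV mean of 22.8 ± 0.233 CPM (SD, n = 3).

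Wnt7a, a ligand known from limb and nervous system patterning, was the exception among the ligands. It was at 0.134, 0.0669 and 0.0343 CPM in EV cells, and 0.054, 0.192 and 0.0718 CPM in EV cells with pioglitazone, which is 7 and 10 reads in all. PPFP cells had 2.35, 2.66 and 3.00 CPM without the drug and 6.54, 9.74 and 9.11 CPM with it. The gene was thus at or near the detection limit in EV cells, clearly counted in PPFP cells and higher again after the drug, with no overlap between these levels. The ratio of counts, PPFP over EV, was 33.7 (95% exact interval 16.1 to 84.9) without pioglitazone and 81.7 (44.2 to 171) with it. The fitted log2 differences were 5.02 (SE 0.38, adjusted p = 5.13e-05) and 6.32 (SE 0.38, adjusted p = 2.03e-05). They rest on few EV reads, and were 5.62 without untreated EV replicate 1 and 7.03 without treated EV replicate 2.

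Porcn, the acyltransferase that all Wnt ligands depend on, was at 23.2, 19.4 and 16.2 CPM in EV cells and 5.5, 9.69 and 9.71 CPM in PPFP cells without pioglitazone. With the drug it was at 21.3, 20.4 and 17.4 CPM and 4.54, 6.23 and 7.29 CPM. Replicate 1 was the lowest of the PPFP libraries in both treatments, and no PPFP library reached the EV range. Porcn fell 2.33-fold without the drug (log2 −1.22, SE 0.25, adjusted p = 0.00536) and 3.20-fold with it (log2 −1.68, SE 0.20, adjusted p = 0.000375). Without PPFP replicate 1 the first of these was −0.97, under the fold threshold, at an adjusted p of 0.0058.

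**Figure D2:**
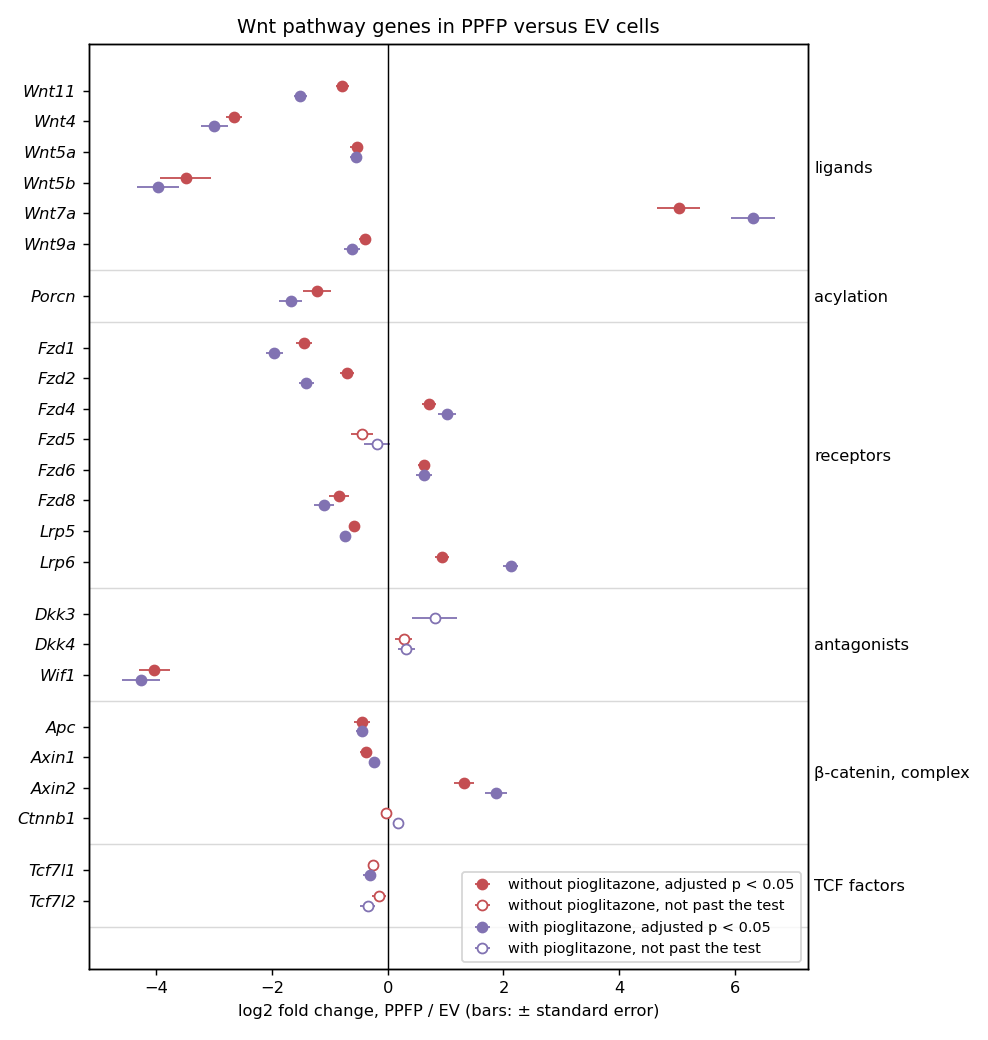
Log2 fold change of PPFP over EV cells for each tested member, ordered by role, without (red) and with (purple) pioglitazone. Bars are ± 1 standard error of edgeR's fit to 6 libraries, filled points passed the adjusted p of 0.05, and Wnt7a at 5.02 and 6.32 lies to the right while Wnt5b, Wnt4 and Wif1 lie to the left.

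Of the 10 receptor rows, 8 were tested. At any fold 3 rose and 4 fell in each comparison (22.0% and 23.1% of all genes without pioglitazone, 26.3% and 26.4% with it). With the drug Lrp6 and Fzd4 were called higher and Fzd1, Fzd2 and Fzd8 lower (19.7% of all genes called). The directions divided the Frizzled family: Fzd1, Fzd2 and Fzd8 fell, Fzd4 and Fzd6 rose, and Fzd5 did not pass the test.

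Fzd1, a receptor linked to β-catenin signaling, was at 273, 343 and 258 CPM in EV cells and 93.0, 111 and 112 CPM in PPFP cells without pioglitazone. With the drug it was at 280, 320 and 263 CPM in EV cells and 58.8, 75.9 and 82.6 CPM in PPFP cells. Each PPFP library held less than the lowest EV library in either treatment. The log2 difference was −1.45 (SE 0.14, adjusted p = 0.000179) and −1.96 with the drug (SE 0.15, adjusted p = 5.86e-05).

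Fzd2, the receptor most closely related to Fzd1 and Fzd7, was at 34.6, 29.4 and 27.0 CPM in EV cells and 18.6, 18.4 and 18.2 CPM in PPFP cells. With pioglitazone it was at 35.2, 29.4 and 27.5 CPM in EV cells and 10.51, 11.3 and 12.3 CPM in PPFP cells. The drug-treated PPFP libraries were again below all others. The log2 difference between the lines was −0.70 without the drug (SE 0.12, adjusted p = 0.00244) and −1.41 with it (SE 0.13, adjusted p = 0.000141).

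Fzd8 was at 9.44, 9.61 and 7.54 CPM in EV cells and 4.84, 4.33 and 5.45 CPM in PPFP cells, and with pioglitazone at 7.94, 10.49 and 8.0 CPM against 3.78, 4.48 and 3.81 CPM. Its log2 difference was −0.85 (adjusted p = 0.00508) and −1.10 with the drug (SE 0.17, adjusted p = 0.00137), the latter −0.96 and under the fold threshold without EV replicate 2. Fzd5, which also has a role in β-catenin signaling, was at 10.2 ± 2.15 CPM in EV and 7.40 ± 0.836 CPM in PPFP cells without the drug (SD, n = 3; log2 −0.44, edgeR adjusted p = 0.083).

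Fzd4, a receptor for Wnt ligands and for the retinal signal norrin, was at 22.6, 30.3 and 28.9 CPM in EV cells and 41.3, 44.8 and 45.9 CPM in PPFP cells. With pioglitazone the values were 24.98, 28.2 and 28.2 CPM and 41.4, 59.05 and 61.5 CPM. All PPFP libraries were above all EV libraries, and replicate 1 was the lowest of the drug-treated PPFP libraries. The log2 difference was 0.71 (SE 0.12, adjusted p = 0.00246) and 1.02 with the drug (SE 0.16, adjusted p = 0.00157). The latter is barely past a 2-fold change: 6 of 14 alternative analyses put it at 0.89 to 1.00, among them those without EV replicate 1 (0.96), PPFP replicate 2 (0.93) or PPFP replicate 3 (0.89). Fzd6, a receptor known for planar polarity and for restraining β-catenin signaling, rose by 0.63 in each comparison (adjusted p = 0.00288 and 0.00714), from 120 ± 8.65 to 183 ± 26.3 CPM without the drug (SD, n = 3).

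The paired co-receptors moved in opposite directions. Lrp6 was at 74.4, 92.4 and 71.3 CPM in EV cells and 137, 161 and 152 CPM in PPFP cells without pioglitazone. With the drug it was at 81.7, 93.8 and 70.2 CPM in EV cells and 331, 364 and 354 CPM in PPFP cells. The EV groups overlapped, whereas the untreated and the treated PPFP groups each formed a level of their own. The log2 difference was 0.94 (SE 0.13, adjusted p = 0.000796) and 2.12 with the drug (SE 0.12, adjusted p = 1.7e-05). Lrp5, which took the most receptor reads in every group except PPFP cells with the drug, where Lrp6 took more, fell from 404 ± 37.4 to 264 ± 9.0 CPM without the drug (SD, n = 3; log2 −0.59, edgeR adjusted p = 0.0011) and from 397 ± 27.1 to 232 ± 10.8 CPM with it (log2 −0.75, adjusted p = 0.00034).

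R-spondins, which enhance signaling by protecting receptors from turnover, were not tested. Rspo1 had 2 to 11 counts per library, and Rspo2 and Rspo3 had at most 4.

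Of the 8 secreted antagonists, Wif1 was the only member called in either comparison. It was among 2 tested without pioglitazone (14.6% of all genes called) and 3 tested with it (19.7% of all genes called). WIF1 binds Wnt ligands outside the cell. It was at 7.90, 9.27 and 5.93 CPM in EV cells and 0.477, 0.481 and 0.422 CPM in PPFP cells. With pioglitazone the values were 7.83, 10.1 and 5.56 CPM and 0.265, 0.448 and 0.464 CPM. The PPFP groups with and without the drug overlapped, and no PPFP library approached the EV range. The ratio of counts, EV over PPFP, was 16.7 (95% exact interval 12.0 to 24.1) and 19.98 with the drug (14.1 to 29.2), with fitted log2 differences of −4.03 (SE 0.26, adjusted p = 2.58e-05) and −4.27 (SE 0.33, adjusted p = 5.81e-05). Dkk4, an inhibitor of LRP5 and LRP6 and a known β-catenin target, was at 5.54 ± 0.553 CPM in EV and 6.61 ± 0.705 CPM in PPFP cells (SD, n = 3; log2 0.28, edgeR adjusted p = 0.168) and did not pass with the drug either (0.32, adjusted p = 0.105). Dkk3, a divergent member of its family, had enough reads with pioglitazone but not without it for a test between the lines (log2 0.81, adjusted p = 0.115).

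In the β-catenin core, Axin2 moved most. It was at 41.3, 41.1 and 53.6 CPM in EV cells and 142, 94.7 and 98.1 CPM in PPFP cells without pioglitazone. With the drug it was at 40.9, 37.3 and 52.0 CPM in EV cells and 199, 136 and 132 CPM in PPFP cells. The lowest PPFP library was above the highest EV library in each treatment. Axin2 rose 2.50-fold (log2 1.32, SE 0.17, adjusted p = 0.000731) and 3.65-fold with the drug (log2 1.87, SE 0.19, adjusted p = 0.000196).

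The summed level of 8 proliferation genes peaked in the same libraries within a line. It was highest in PPFP replicate 1, at 2482 CPM without and 2702 CPM with the drug, against 1467 to 1875 CPM in the other PPFP libraries, and Axin2 was highest there too. Among EV libraries, replicate 3 was highest for Axin2 and for the proliferation genes, at 2190 and 2149 CPM. Of the other tested members, Fzd6 and Axin1 were highest in these same libraries of both lines. Wnt4 was highest in EV replicate 3 but lowest in PPFP replicate 1. None of the 8 proliferation genes was called between the lines, where 14.6% of all genes were called without and 19.7% with the drug. Their median log2 fold changes were 0.25 and 0.59 on widely spread libraries, so the missing calls do not show equal levels. The paper reports higher protein levels of Ccnb1 and Cdk1, which are among these genes, and more PPFP cells in the later phases of the cell cycle. The part of proliferation in the values of these Wnt genes was not tested.

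Axin1, the constitutive scaffold of the destruction complex, fell by 0.37 on the log2 scale (adjusted p = 0.0202) and by 0.24 with the drug (adjusted p = 0.0471). Apc, its tumor suppressor partner, fell by 0.45 in each comparison (adjusted p = 0.0353 and 0.00945). Ctnnb1, which encodes β-catenin and took the most reads of this group, was at 759 ± 21.2 CPM in EV and 731 ± 54.6 CPM in PPFP cells (SD, n = 3; log2 −0.03, edgeR adjusted p = 0.76), and at 770 ± 24 and 850 ± 50.1 CPM with the drug (log2 0.17, adjusted p = 0.108).

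Of the TCF/LEF factors, which bring β-catenin to DNA, Lef1 had no count in any library. Tcf7l1, mostly a repressor, was at 63.9 ± 4.78 CPM in EV and 53.1 ± 2.18 CPM in PPFP cells (SD, n = 3; log2 −0.25, edgeR adjusted p = 0.0561) and fell by 0.31 with the drug (adjusted p = 0.0454). Tcf7l2 did not pass in either comparison (log2 −0.15, adjusted p = 0.337, and −0.35, adjusted p = 0.054).

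Pioglitazone changed Wnt7a, Lrp6, Wnt11 and Fzd2 in PPFP cells in the fit without pairing. In the fit that pairs the libraries by replicate number, 15 of 22 tested members passed, where 51.6% of all genes did. No member passed in EV cells. Without pairing, 2 members were called in PPFP cells (2.42% of all genes), Wnt7a and Lrp6, both higher. At any fold 4 passed (14.8% of all genes), the others being Wnt11 and Fzd2, both lower. The libraries with and without the drug did not overlap for 9 members (34.1% of all genes). Wnt7a rose 3.18-fold (log2 1.67, SE 0.20, adjusted p = 0.00363), in 3 of 3 pairs of same-numbered libraries. Lrp6 rose 2.34-fold (log2 1.23, SE 0.08, adjusted p = 0.000509), also in 3 of 3. Wnt11 fell by 0.80 (SE 0.11, adjusted p = 0.00618) and Fzd2 by 0.69 (SE 0.09, adjusted p = 0.00454), each in 3 of 3.

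Libraries with the same replicate number shared their deviations within each line. PPFP replicates 2 and 3, however, correlated more across numbers (r 0.536) than with their own number (0.465 and 0.436). With the replicate number as a block 15 members passed at any fold, in a table where 51.6% of all genes then did. The called members were again 2 (3.20% of all genes). The members added by the block were Axin1 (0.18), Axin2 (0.48), Ctnnb1 (0.22), Fzd4 (0.29) and Fzd5 (0.40), which were higher with the drug, and Fzd1 (−0.54), Lrp5 (−0.18), Porcn (−0.45), Tcf7l2 (−0.24), Wnt4 (−0.39) and Wnt9a (−0.25), which were lower, all as log2 fold changes with adjusted p from 1.76e-10 to 0.00551. The Fzd4 response was 0.004 in replicate 1 against 0.40 and 0.42 in replicates 2 and 3, whose treated libraries were the closest pair. Wnt5b had too few reads for this comparison.

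In EV cells, edgeR found no member and no other gene past the adjusted p at any fold (0% of all genes called and 0% at any fold). Unadjusted p was below 0.05 for 16 of 10146 genes and for no member, with 0.519 the smallest unadjusted p among 22 tested members. With the replicate block, the unadjusted p of 1 member was below 0.05, and the smallest adjusted p of a member was 0.81 (Wnt11). DESeq2 also called no member, and with the replicate block 1 gene of the table passed, which was not a member. The members' log2 fold changes in EV cells lay between −0.07 and 0.14.

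**Figure D3:**
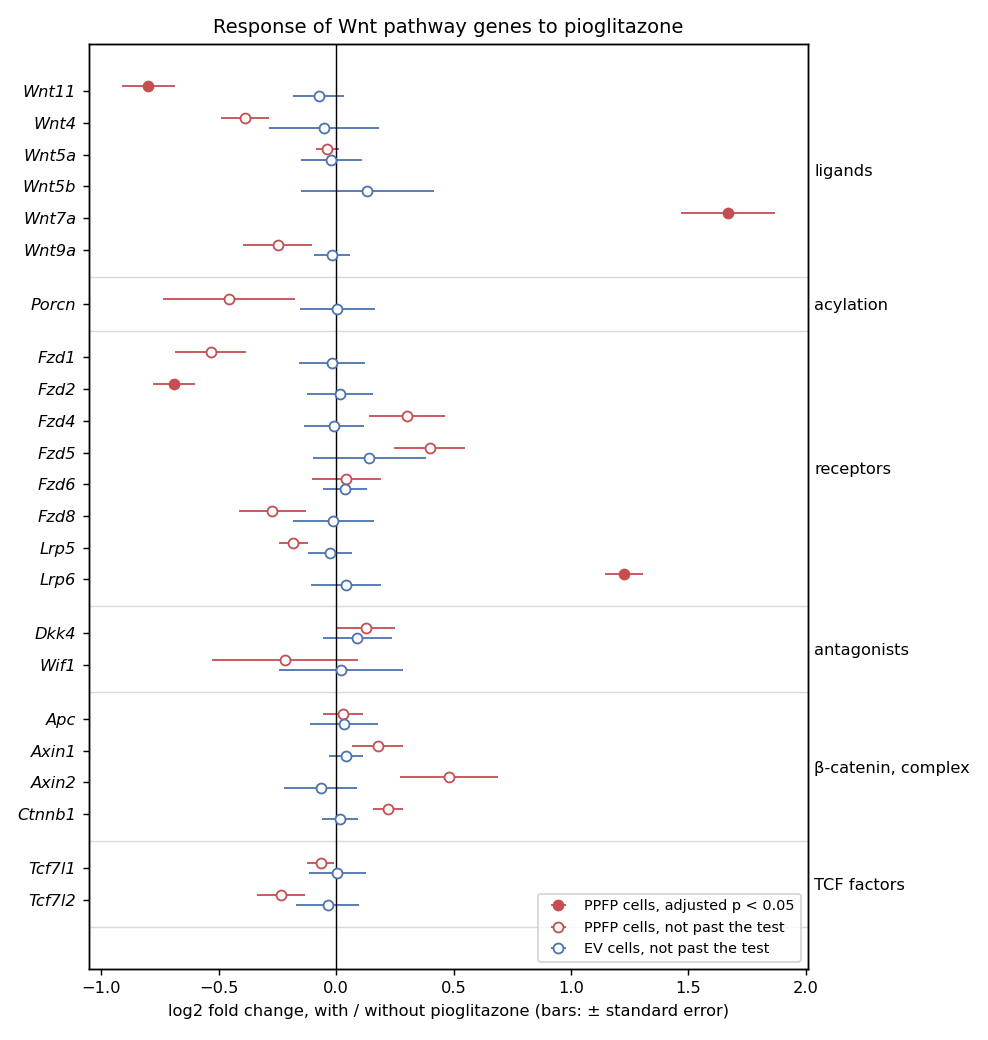
Log2 fold change with over without pioglitazone for each tested member, in PPFP cells (red) and EV cells (blue), ordered by role. Bars are ± 1 standard error of edgeR's fit without the replicate block; filled points (Wnt7a, Lrp6, Wnt11 and Fzd2 in PPFP cells) passed the adjusted p of 0.05, and the EV values all lie between −0.07 and 0.14.

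The difference in response between the lines was tested on all 12 libraries. Lrp6 was the only member called of 24 tested (0.925% of all genes), with a response 1.17 higher in PPFP than in EV cells (log2, SE 0.18, adjusted p = 0.00708). Wnt11 passed at a smaller fold, where 2 members passed in all (2.64% of all genes), with a difference of −0.74 (SE 0.17, adjusted p = 0.041). It no longer passed when any of 8 libraries was left out: EV replicates 2 and 3 and PPFP replicates 1, 2 and 3 without the drug, and EV replicate 1 and PPFP replicates 2 and 3 with it. Fzd2 had a like difference that did not pass (−0.72, adjusted p = 0.0591). Wnt7a, with 17 reads in all EV libraries, had a difference of 1.27 with an SE of 0.75 (adjusted p = 0.563), so that a drug response particular to PPFP cells was not detectable at this depth. With the replicate number as a block within each line, 11 members passed at any fold (34.3% of all genes): Lrp6 (1.17), Axin2 (0.54) and Ctnnb1 (0.19) above zero, and Wnt11 (−0.74), Fzd2 (−0.72), Fzd1 (−0.54), Porcn (−0.48), Wnt4 (−0.32), Wnt9a (−0.25), Tcf7l2 (−0.21) and Lrp5 (−0.17) below it.

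Of a list of 81 other genes of the pathway, 69 had a row and 59 were tested between the lines. Without pioglitazone 1 was called higher and 7 lower, and at any fold 12 were higher, 23 lower and 24 did not pass, with a median log2 fold change of −0.12. Of all tested genes, 14.6% were called and 45.2% passed at any fold. With it, 4 were called higher and 11 lower (19.7% of all genes called), and 13 and 23 passed at any fold (52.7% of all genes), again with a median of −0.12. The largest differences were in further inhibitors. Sostdc1, a secreted protein that inhibits Wnt and BMP signals, had 650 counts in EV and 2 in PPFP cells without the drug and 611 and 2 with it. The ratio of its counts was 285 (95% exact interval 78.6 to 2358) and 265 (73.1 to 2194). Tpbg, which encodes a membrane glycoprotein that restrains Lrp6 signaling, fell from 21.1 ± 0.938 to 2.12 ± 0.358 CPM (SD, n = 3; log2 −3.29, edgeR adjusted p = 6.74e-06) and was also lower with the drug (log2 −3.34). Dact3, a Dishevelled-binding inhibitor, was lower in both treatments (log2 −2.82, adjusted p = 6.21e-05, and −2.98 with the drug).

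In the planar polarity branch the Prickle genes diverged. Prickle2 fell (log2 −1.61, adjusted p = 0.00026, and −2.46 with the drug), whereas Prickle1 rose by 1.26 without it (adjusted p = 0.000445). Ror1, a receptor for WNT5A, fell by 1.28 (adjusted p = 0.00286). With the drug, Tle2, a co-repressor that binds TCF factors, fell by 1.82 (adjusted p = 0.00125), and Ppp2ca, the catalytic subunit of a phosphatase that acts on the destruction complex, rose by 1.58 (adjusted p = 2.08e-05). In response to pioglitazone, no gene of this list was called in PPFP cells, and 8 rose and 10 fell at any fold (14.8% of all genes). Under the replicate block 18 rose and 22 fell, with 1 call (51.6% and 3.20% of all genes). Ppp2ca alone of 59 tested genes of the list passed the test of the difference in response between the lines at any fold (log2 0.76, adjusted p = 0.0173). Of all genes, 2.64% did.

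Of 34 genes listed as targets of β-catenin, which include Axin2, Lef1 and Dkk1 of the members, 29 had a row. Without pioglitazone 17 were tested, 2 were called higher and 3 lower, and at any fold 3 were higher, 7 lower and 7 did not pass, with a median of −0.57. Of all tested genes, 7.27% were called higher and 7.31% lower, and at any fold 22.0% were higher and 23.1% lower. With it, 18 were tested, 3 were called higher and 3 lower (9.30% and 10.4% of all genes), and 3 higher and 5 lower passed at any fold (26.3% and 26.4% of all genes), with a median of −0.34. Axin2 thus stood with Myc, the growth-promoting transcription factor, which rose by 1.54 (SE 0.32, adjusted p = 0.00636) and by 1.95 with the drug (adjusted p = 0.000566). In the other direction, Fosl1, an AP-1 subunit, fell (log2 −1.88, adjusted p = 0.0002, and −2.86 with the drug), and so did the matrix protease gene Mmp14 (−1.13, adjusted p = 0.000163, and −1.43). The matricellular genes Wisp1 and Wisp2 went opposite ways on few reads. Wisp2 had 100 counts in EV and 2 in PPFP cells without the drug (ratio 43.8, 95% exact interval 11.8 to 367) and 119 and 2 with it (51.6, 14.0 to 431). Wisp1 was tested only with the drug and had 8 counts in EV and 57 in PPFP cells (ratio, PPFP over EV, 8.21, 95% exact interval 3.90 to 19.9). In response to the drug in PPFP cells, Ccnd1, the cyclin of G1 progression, rose by 0.33 (adjusted p = 0.00389), and Fosl1 (−0.91), Lgr5 (−0.56), Ephb3 (−0.38) and Mmp14 (−0.31) fell. Those 5 of 18 tested targets compare with 14.8% of all genes, and under the replicate block 7 rose and 5 fell, where 51.6% of all genes passed.

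**Figure D4:**
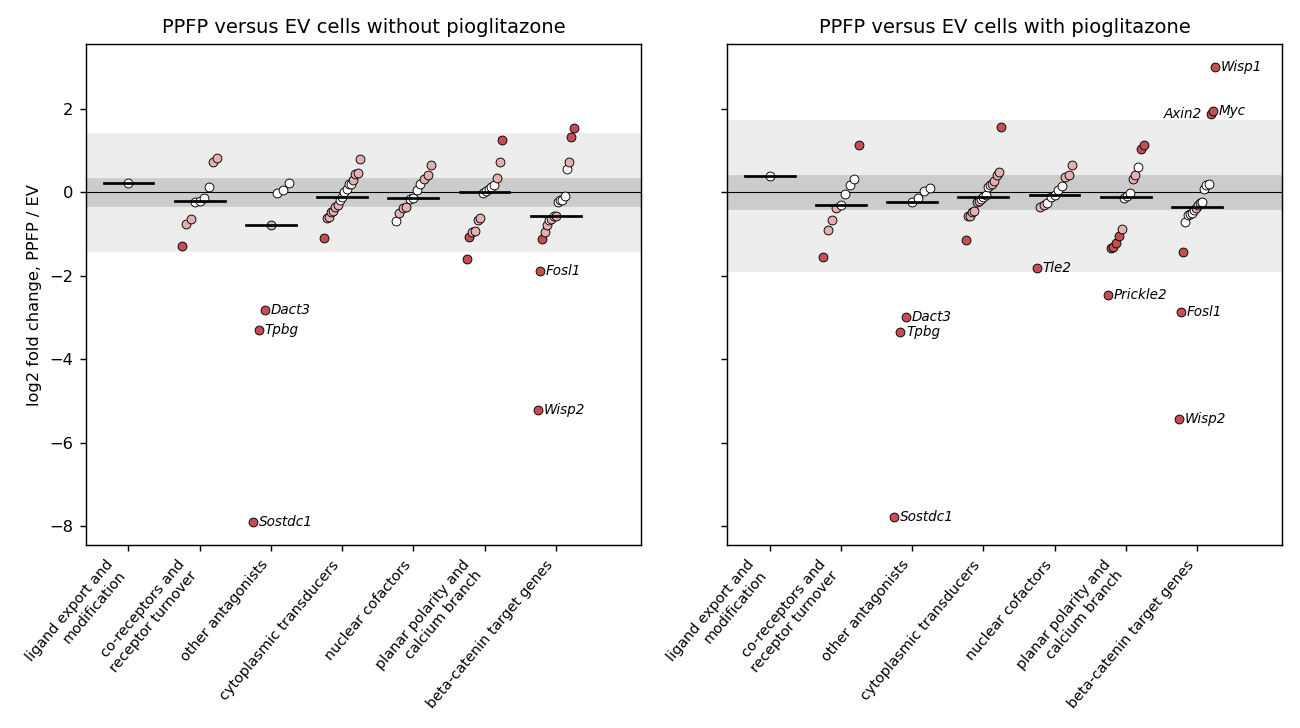
Log2 fold change of PPFP over EV cells for the other pathway genes, by role, and for the listed β-catenin targets, without (left) and with (right) pioglitazone. Each point is 1 gene (red, called; pink, past the adjusted p at a smaller fold; white, not past it), lines are medians, and the grey bands hold the middle 50% and 90% of all tested genes; Sostdc1, Tpbg, Dact3, Prickle2, Fosl1 and Wisp2 lie below the wider band in both panels.

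Other expression programs differed between the lines as well. The summed adipocyte markers were at 0.61 to 2.98 CPM in EV libraries, 12.4 to 12.7 CPM in PPFP libraries without and 20.4 to 26.6 CPM with pioglitazone, with Lep at 0 in every library. Of these 4 markers 2 were tested, Cidec and Adipoq: both were called higher without the drug (7.27% of all genes), and with it Cidec was called higher (9.30% of all genes) while Adipoq did not pass (log2 0.36, adjusted p = 0.562). With pioglitazone Cidec rose in PPFP cells by 1.46 on the log2 scale (adjusted p = 0.00129) and Adipoq fell by 0.91 (adjusted p = 0.0241), where 14.8% of all genes passed. Of 10 thyroid follicular markers, 2 were called higher and 3 lower without the drug (14.6% of all genes called) and 2 higher and 4 lower with it (19.7% of all genes). Their sum in PPFP libraries was 13609 to 14307 CPM without and 10190 to 10428 CPM with the drug. In that drug response 1 was called higher and 1 lower (2.42% of all genes), and at any fold 1 rose and 5 fell (14.8% of all genes). Their part in the values of the Wnt genes was not tested.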

How the data were processed

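The 12 RNA-seq libraries cover both cell lines, each exposed to drug or vehicle. The authors made TruSeq libraries, aligned paired-end reads to the rat genome rn4 with TopHat2 2.0.11 and counted them with HTSeq 0.6.1p1 in intersection-strict mode, and the counts were deposited without normalization; the strand setting is not given in the sources used here, so overlapping and antisense genes cannot be separated. Sample groups came from the treatment and transfection labels.

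Each pairwise comparison was fitted to its 6 libraries with edgeR 4.0.16 (R 4.3.3): filterByExpr with a minimum count of 10, TMM normalization, the quasi-likelihood test and Benjamini-Hochberg adjustment over all tested genes. The difference in pioglitazone response was fitted to all 12 libraries. A call needed an adjusted p below 0.05 and a fold above 2. SE is the log2 fold change divided by the square root of F. Ratios of low genes carry 95% exact intervals that cover counting error only.

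Within a line, deviations of same-numbered libraries correlated (r 0.436 to 0.743 in PPFP and 0.532 to 0.774 in EV cells). The study ran the experiments independently, with each experiment on the same lanes. PPFP replicates 2 and 3, however, also correlated across numbers (r 0.536, above their same-number 0.465 and 0.436). Between the lines, same-numbered libraries did not pair (r −0.380 to 0.317), and differently numbered ones reached r 0.511 without and 0.453 with the drug. Whether a number marks the same experiment in both lines cannot be told. Because of the correlation within lines, the block is printed beside the pioglitazone results.

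The members, the pathway, target and marker lists and the tests were chosen with earlier results of these data known. Members called were given in every library, members past the adjusted p at a smaller fold with means or fold changes, the most counted member of each role was named, and of each other list at most the 6 largest called differences per comparison between the lines. Other values named for the drug response were chosen after they were seen. Alternatives were other tests (edgeR exact, DESeq2 1.42.0), scalings, filters, fold thresholds, 1 fit of all 12 libraries, the block, and leaving out each library. ChIP-seq peaks lie on rn4 coordinates and were not used here. Promoter windows came from the RefSeq table of build GRCr8, which is not the build of the counts. The study describes the replicates as independent experiments; where libraries share a culture, p-values measure a smaller, partly technical spread.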

Additional observations from a re-analysis of the deposited data

Results flagged for a closer look

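The response to pioglitazone differed between PPFP and EV cells for 2 members in a test of that difference (edgeR, all 12 libraries). For Lrp6 the log2 response was 1.17 higher in PPFP cells (adjusted p = 0.00708): it was 1.23 in PPFP cells, up in 3 of 3 same-numbered pairs, and 0.04 in EV cells. The adjusted p ranged from 4.93e-09 to 0.0262 over 18 alternatives. For Wnt11 the difference was −0.74 (adjusted p = 0.041), with a response of −0.80 in PPFP cells and −0.07 in EV cells. That pass was lost in 8 of 12 fits that each left out a single library, and with the replicate number as a block within each line the adjusted p was 1.98e-07 for the same difference, in a fit where 11 members and 34.3% of all genes passed. The Wnt11 response was downward in 3 of 3 same-numbered pairs in each line. Groups of 3 libraries were too small to screen for single outlying libraries.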

How the results depend on the processing

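For 22 fold changes of called members, 307 values under alternatives gave no reversal; 299 stayed past both thresholds and 8 fell under a 2-fold change at an adjusted p below 0.05. Those 8 were Porcn without pioglitazone, lacking PPFP replicate 1 (−0.97), Fzd8 with pioglitazone, lacking EV replicate 2 (−0.96), and Fzd4 with pioglitazone in 6 settings (0.89 to 1.00). With a fold threshold of 1.5, the members called were 14 between the lines without pioglitazone (26.8% of all genes), 4 for the drug response of PPFP cells (6.25%) and 2 for the difference in response (2.17%). At any fold, the drug response of PPFP cells gave 8 members with DESeq2 (2010 of 10064 genes) and 15 with the replicate block (51.6% of all genes), which pairs libraries by replicate number. It gave 4 to 7 when single libraries were left out (7 without untreated PPFP replicate 1). The difference in response gave 11 with the block within each line (34.3% of all genes) and 1 to 2 with single libraries left out. Between the lines, where the numbers did not pair the libraries, the block called 1466 of 10264 genes without and 2012 of 10291 with the drug. Under this block Axin1 and Tcf7l1 no longer passed with the drug (edgeR adjusted p = 0.124 and 0.0794). The cause of these changes was not tested. Scaling by library size alone moved the median of all genes by −0.14 on the log2 scale between the lines with pioglitazone and the medians of the other pathway and target lists there to −0.26 and −0.48, and no tested member changed sign between the lines. Between the lines, Wnt5b and Wnt7a, and Wif1 with pioglitazone, had no value where 10 counts were required in every library. Low counts limit the values of Wnt5b and Wnt7a. Whether the 23 untested members were silent or only below detection at this depth was not tested.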

Other observations

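Gene neighbors of the 12 called members were read from the gene order of build GRCr8, taking up to 2 protein-coding genes on each side. Of 31 such neighbors in the count table, 23 were tested, 3 were called between the lines without pioglitazone (14.6% of all genes) and 5 with it (19.7% of all genes), and 2 for the drug response of PPFP cells (2.42% of all genes). The genes named here were chosen after their values were seen. Bcl2l14, a BCL2-like gene next to Lrp6, had 20, 12 and 5 counts in untreated EV cells and 18, 16 and 13 in treated EV cells, against 35, 50 and 49 in untreated and 122, 213 and 200 in treated PPFP cells. These levels rank the groups as Lrp6 does. Its log2 difference between the lines was 2.06 without the drug (adjusted p = 0.00677) and 3.73 with it (adjusted p = 4.68e-05), and its drug response in PPFP cells was 1.89 (adjusted p = 0.00687), while the difference in response between the lines did not pass (1.65, adjusted p = 0.168). Mansc1, also close to Lrp6, had 0 to 2 counts in EV libraries and 4 to 13 in PPFP libraries and was not tested. Mpp7, near Fzd8, went the other way from Fzd8: it rose in PPFP cells by 1.16 without (adjusted p = 0.000352) and by 2.30 with the drug (adjusted p = 1.4e-05). Its drug response in PPFP cells was 1.02 (adjusted p = 0.00446), and it was the neighbor called for the difference in response between the lines (1.12, adjusted p = 0.00587). Between the lines with the drug, Cdk14, near Fzd1, was higher in PPFP cells (log2 1.03, adjusted p = 9.25e-05) and Lrtm2, near Wnt5b, was lower (log2 −1.11, adjusted p = 0.000158). Rgs9, beside Axin2, was higher in PPFP cells by 3.21 without (adjusted p = 0.000344) and 3.18 with the drug (adjusted p = 4.12e-05).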
